A study of Mus musculus with 48 samples.

Results

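The 10 genes described here are induced in neurons by synaptic activity and belong to the program by which activity changes synapses: the orphan nuclear receptors Nr4a1, Nr4a2 and Nr4a3, the transcription factor Npas4, the synaptic scaffold Homer1, the secreted proteins Nptx2, Bdnf and Vgf, the phosphatase Dusp1 and the immediate early factor Ier2. The list was drawn up with earlier results of these data known. Its members were then taken by name, as the listed genes present in all 4 tables of normalized expression, and all 10 were present among the 15782 genes of those tables. Expression was measured in fixed brain sections by GeoMx digital spatial profiling (DSP), in which probes for the whole mouse transcriptome are hybridized to a section and the barcodes released by light from 1 selected area of illumination (AOI) are counted. The animals were C57BL/6 males, aged 10 weeks when the flight was launched. Flight (FLT) mice spent 35 days on the International Space Station and reached the laboratory within 20 h of splashdown. Mice of the ground control (GC) arm lived in the same type of hardware on Earth, also for 35 days, on a schedule that began a few days after that of the flight mice. Within both arms, mice received either saline (SAL) or BuOE, a manganese porphyrin that mimics superoxide dismutase, given under the skin at 1 mg/kg from 7 days before launch and weekly from then on. The 4 groups were GC-SAL, FLT-SAL, GC-BuOE and FLT-BuOE, with 3 mice each. From each mouse 1 section gave 1 AOI in each of 4 regions, the hippocampal Cornu Ammonis (CA) and dentate gyrus (DG), the frontal cortex (FCT) and the cortex (CT), which made 48 AOIs. Regions were chosen by an operator on sections stained for GFAP, Iba1 and nuclei. Each slide carried the 3 sections of a single group, so that an effect of slide cannot be told apart from that of group. Return from orbit and the transport after splashdown belonged to the flight arm, and cannot be told apart from the flight itself. Flight differences below include them.

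Synaptic glutamate receptors and voltage-gated channels admit calcium into an active neuron, and calcium-dependent kinases then switch on transcription through factors such as CREB, SRF and MEF2 that are already bound near the start of their target genes. The first genes to respond encode transcription factors, among them the NR4A receptors, Npas4 and Ier2, and signaling brakes such as Dusp1, and the effectors follow, among them the short form of Homer1, Bdnf, Vgf and Nptx2. In hippocampus and cortex these genes are used as markers of recently active neurons, and several of them are needed for lasting memory. Their transcripts can rise and fall within hours. The rows of the tables carry no isoform, so that the long and short forms of Homer1, and the several transcripts of Bdnf, were measured as 1 value each.

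The promoters of these genes are shown first because CREB acts on them through the cAMP response element, whose core reads TGACG on one strand and CGTCA on the other. RefSeq promoter windows of GRCm38.p6 were found for 7 of the 10 genes, 14 windows in all, and Nptx2, Vgf and Ier2 had none in the table. The 250 bases before each transcription start were searched for the core on both strands, and the palindrome in which TGACG is directly followed by TCA was counted once. Each NR4A window held 4 cores. Homer1 had 3 in 1 of its 2 windows, Npas4 and Dusp1 had 2 each, with the palindrome in Dusp1, and Bdnf had 1, in a single one of its 7 windows. Of the 32851 windows of the RefSeq table, 17.8% held at least 1 core, 2.74% at least 2, 0.384% at least 3 and 0.0487%, or 16 windows, at least 4, and 1.55% held the palindrome. The windows of the 3 NR4A genes, of Homer1 and of Npas4 follow, 5′ to 3′ on the strand of the gene, with the cores in capitals. They are chr15:101266596-101266845 (plus strand), chr2:57124004-57124253 (minus strand), chr4:48045055-48045152 (plus strand), chr13:93303507-93303756 (plus strand) and chr19:4990129-4990158 (minus strand). For Nr4a1, Nr4a2 and Homer1 all 250 bases are printed, up to the base before the start. For Nr4a3 the part outside annotated exons is printed, with 3 of its 4 cores, and for Npas4 a stretch of 30 bases with both cores, within the first exon of a longer GENCODE transcript of the gene. A match of letters is a description and does not show that a factor was bound in these samples.
Nr4a1: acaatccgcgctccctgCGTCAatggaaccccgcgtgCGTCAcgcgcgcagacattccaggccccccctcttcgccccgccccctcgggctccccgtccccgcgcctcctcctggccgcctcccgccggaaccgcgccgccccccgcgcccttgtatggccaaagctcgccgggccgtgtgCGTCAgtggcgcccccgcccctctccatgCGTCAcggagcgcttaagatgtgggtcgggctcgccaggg
Nr4a2: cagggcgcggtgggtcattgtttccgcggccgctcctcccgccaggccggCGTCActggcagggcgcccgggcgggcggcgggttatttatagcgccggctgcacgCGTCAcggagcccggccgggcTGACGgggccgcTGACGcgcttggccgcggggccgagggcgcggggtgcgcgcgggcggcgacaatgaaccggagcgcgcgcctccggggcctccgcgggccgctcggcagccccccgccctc
Nr4a3: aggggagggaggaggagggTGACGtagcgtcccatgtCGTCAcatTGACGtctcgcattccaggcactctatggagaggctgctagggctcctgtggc
Homer1: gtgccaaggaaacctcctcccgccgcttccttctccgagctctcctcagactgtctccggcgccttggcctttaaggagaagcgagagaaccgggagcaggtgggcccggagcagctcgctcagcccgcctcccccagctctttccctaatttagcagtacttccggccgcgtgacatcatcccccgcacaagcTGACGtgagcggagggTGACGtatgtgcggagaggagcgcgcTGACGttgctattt
Npas4: ccgttcgaCGTCAcgggaTGACGtcggaag

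The AOIs held 322629 to 1579380 deduplicated counts, with a median of 652040. FLT-SAL was the deepest group, with a median of 991426 counts against 548888 to 639735 in the other 3. In FCT its AOIs held 568 to 602 nuclei, against 400 to 472 in GC-SAL, 466 to 524 in GC-BuOE and 432 to 474 in FLT-BuOE. In CT they held 549 to 598, which overlaps both ground groups but not FLT-BuOE (416 to 448). In DG they held 545 to 640, against 477 to 528 in GC-SAL, and in CA the ranges overlapped. The part of the number of nuclei in the group differences was not tested. Values below are Q3-normalized, that is, scaled so that the upper quartile of the genes is 40.0231 in every AOI. On this scale the negative-control probes, which match no mouse RNA, read 9.244 to 20.95, highest in CA (median 18.86) and lowest in DG (median 11.2). These readings set the background. In FCT they read 15.22 to 17.99 in FLT-SAL and 12.79 to 15.9 in GC-SAL. There they read 13.13 to 14.46 in GC-BuOE and 12.05 to 12.95 in FLT-BuOE, both wholly below FLT-SAL. The genes other than Ier2 exceeded 1.5 times the negative control in 42 to 48 of the 48 AOIs. Within CA, Dusp1 did so in only 7 of 12 AOIs and Bdnf in 8 of 12. Ier2 did so in 23 of 48, with a median ratio of 1.49, and its values are close to background. Single values rest on few molecules, from 5 counts (Ier2 in DG) to 243 counts (Vgf in CT). CA and DG carried their own markers. In CA the median level of Wfs1 was 82.33 and that of Fibcd1 was 96.99, against 31.3 and 31.08 in DG. Prox1 was at 111.46 in DG and at 34.95 in CA. Of the cortical layer markers used below, Cux2, Fezf2 and Lamp5 had higher medians in FCT and CT than in CA and DG. Rorb and Rgs8 were highest in CA and Calb1 in DG.

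The first comparison asked how the 10 genes differed between flight and ground mice given saline. Nr4a1 in CT fell in FLT-SAL, and it was the 1 of 40 pairs of a gene and a region that passed the test (limma on log2 of the Q3-normalized value + 1, with Benjamini-Hochberg adjusted p below 0.05 among the 15782 genes of a region and a change over 1.5-fold). Over all genes, 0.136% of such pairs passed in this comparison. Npas4 and Homer1 had lower values in FLT-SAL in CA, FCT and CT, without passing the test after adjustment. None of the 10 genes passed in DG, where 9 of 10 values were higher in FLT-SAL. Called genes made up 0.266% of all genes in DG and 0.139% in CA, against 0.0887% in CT and 0.0507% in FCT.

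Nr4a1, also called Nur77, is an early transcription factor whose expression follows neuronal firing. Its levels in CT were 82.47, 114.99 and 81.91 in the GC-SAL mice (93.1 ± 18.9, mean ± SD, n = 3). In FLT-SAL they were 53.85, 47.53 and 51.31 (50.9 ± 3.18, n = 3). All 3 flight mice lay below all 3 ground mice, and the flight mice lay within a narrow range. The difference was -0.84 on the log2 scale (SE 0.16, 95% confidence interval -1.17 to -0.51), or 1.79-fold lower, with an adjusted p of 0.0063 by limma. The other groups read 81.19, 70.04 and 84.66 in GC-BuOE and 77.46, 95.61 and 70.04 in FLT-BuOE, so that every mouse of the other 3 groups was above every FLT-SAL mouse. Behind these values stood 60 to 181 counts of the Nr4a1 probe per AOI. The call was lost without GC-SAL replicate 2, the highest value (-0.68, adjusted p 0.11), and without FLT-SAL replicate 2, the lowest (-0.79, adjusted p 0.16). It was also lost when every AOI was thinned to the lowest depth (-0.81, adjusted p 0.48), and with no mean-variance trend in limma (adjusted p 0.20). The CT AOI of GC-SAL replicate 1 held 140 nuclei against 416 to 598 in the other CT AOIs, and without it the difference was -0.92 (adjusted p 0.017).

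The AOIs of CT also differed in oligodendrocyte markers. The summed level of the 9 measured myelin genes was 816.23 to 878.6 in GC-SAL and 1355.69 to 1907.6 in FLT-SAL, against 901.09 to 1096.79 in GC-BuOE and 692.01 to 869.39 in FLT-BuOE. In CT 4 of these 9 genes rose in FLT-SAL, led by Mobp, a myelin protein gene (log2 change 1.33, adjusted p 2.8e-07 by limma). The sum of 6 excitatory neuron markers, led by the transporter Slc17a7, overlapped between the groups, at 413.26 to 651.81 in GC-SAL and 529.76 to 561.86 in FLT-SAL. The sum of 6 cortical layer markers did not overlap between GC-SAL, at 239.21 to 265.61, and FLT-SAL, at 204.62 to 223.4. It was 222.8 to 279.02 in GC-BuOE, which overlaps both, and 283.24 to 319.07 in FLT-BuOE. In FCT too the summed myelin genes lay higher in FLT-SAL, at 1283.89 to 2009.73 against 1078.27 to 1282.31 in GC-SAL, 604.79 to 1060.61 in GC-BuOE and 897.66 to 1119.4 in FLT-BuOE, and 7 interneuron markers summed to 301.89 to 375.5 in FLT-SAL against 259.1 to 297.82 in GC-SAL. In CA the sum of 5 CA1 pyramidal cell markers was 541.49 to 588.03 in FLT-SAL against 367.9 to 434.54 in GC-SAL. The excitatory neuron markers summed to 489.51 to 549.04 against 423.32 to 484.09 there, and the interneuron markers to 231.9 to 266.82 against 196.3 to 223.21. In DG the interneuron sum was 240.88 to 287.44 in FLT-SAL against 198.74 to 228.04 in GC-SAL. Sums in DG were also higher for 6 granule cell markers (430.9 to 487.42 against 329.85 to 396.23) and 7 astrocyte markers (414.31 to 458.45 against 343.2 to 385.34). The part of this makeup in the results for Nr4a1 and the other members was not tested, and fewer cells of a type and less RNA per cell cannot be told apart in an AOI.

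Nr4a1 in the other regions gave a mixed picture. In CA its levels were 61.57, 95.29 and 63.74 in GC-SAL and 67.1, 48.23 and 40.02 in FLT-SAL, a log2 difference of -0.50 with overlapping groups (unadjusted p 0.019, adjusted p 0.60). In FCT they were 71.62, 56.5 and 84.75 in GC-SAL and 57.75, 47.17 and 68.35 in FLT-SAL, which overlap. In DG, where the gene was lowest, GC-SAL read 26.22, 34.44 and 26.02 and FLT-SAL 25.94, 36.38 and 29.3, within the spread of the mice. The flight difference in DG minus that in CT, taken within each mouse, was 0.92 on the log2 scale (95% confidence interval 0.40 to 1.44, unadjusted p 0.0014), but its adjusted p was 0.86, so that a difference between the regions in the response to flight was not established for Nr4a1. No member passed this test for any pair of regions, against 0.00634% of all genes for CA and CT and 0% for the other 5 pairs.

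**Figure D1:**
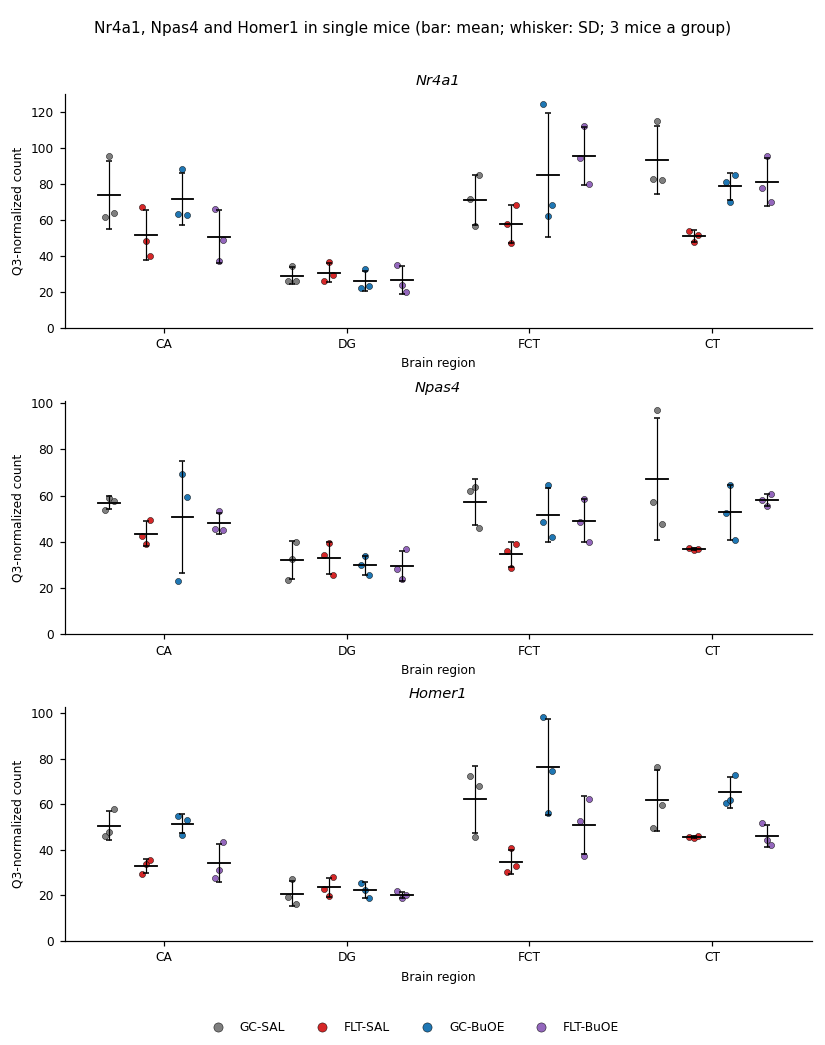
Q3-normalized levels of Nr4a1, Npas4 and Homer1 in each mouse, by region and group, with the mean and SD of 3 mice (bars). In CT the 3 FLT-SAL mice lay at 47.53 to 53.85 for Nr4a1 and at 36.52 to 37.11 for Npas4, below the 9 mice of the other groups.

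Npas4, a transcription factor switched on almost only by calcium entry into neurons, followed a like pattern in its values. In CT the levels were 57, 97.2 and 47.47 in GC-SAL and 37.11, 36.52 and 36.94 in FLT-SAL, and in FCT they were 62.14, 63.57 and 45.91 against 36.02, 28.59 and 39.12. The groups did not overlap in either region or in CA (53.88, 59.08 and 57.81 against 42.38, 39 and 49.26). Of all genes, 5.23% in CT, 4.7% in FCT and 5.33% in CA had all FLT-SAL values below all GC-SAL values. The log2 differences were -0.78 in CT (95% confidence interval -1.16 to -0.40, adjusted p 0.12 by limma) and -0.71 in FCT (-1.09 to -0.32, adjusted p 0.25), short of the threshold. The SD of the GC-SAL mice in CT, 26.4, came mostly from the mouse at 97.2, and without another mouse, GC-SAL replicate 3, Npas4 in CT was called (adjusted p 0.0074). Count tests called Npas4 in CT too, with adjusted p of 0.0036 by edgeR with TMM and, rounded up, 0.05 by DESeq2.

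Homer1 encodes a scaffold that ties metabotropic glutamate receptors to their calcium stores, and its short activity-induced form loosens this link. In FCT its levels were 72.67, 45.52 and 68.27 in GC-SAL and 30.3, 40.74 and 32.83 in FLT-SAL, a log2 difference of -0.81 (95% confidence interval -1.21 to -0.40, adjusted p 0.15 by limma). In CA they were 46.18, 47.65 and 57.81 against 29.43, 33.87 and 35.41 (-0.60, adjusted p 0.41), and in CT 49.73, 76.23 and 59.57 against 45.84, 45.03 and 46.18 (-0.41, adjusted p 0.86). In these 3 regions every FLT-SAL mouse was below every GC-SAL mouse, although no difference passed the threshold. In DG the levels overlapped, at 19.32, 26.99 and 16.01 in GC-SAL and 22.98, 19.75 and 27.87 in FLT-SAL. Homer1 in FCT was called by edgeR (adjusted p 0.042 with TMM, 0.040 with Q3 scaling), and by limma without GC-SAL replicate 2 (-1.01, adjusted p 0.049).

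The mouse is the replicate, so the 4 regions of each mouse were also averaged on the log2 scale. The averages of Npas4 were 5.56, 5.9 and 5.6 in GC-SAL and 5.26, 5.19 and 5.24 in FLT-SAL, and the difference of -0.45 (95% confidence interval -0.68 to -0.23) had an adjusted p of 0.035 by limma. Those of Homer1 were 5.44, 5.56 and 5.5 against 5.01, 5.1 and 5.17 (-0.41, adjusted p 0.045). Those of Nr4a1 were 5.82, 6.11 and 5.89 against 5.62, 5.51 and 5.53 (-0.39, adjusted p 0.053). For all 3 genes the groups did not overlap (6.25% of all genes had FLT-SAL wholly below GC-SAL), and the changes of 1.31-fold to 1.37-fold stayed under the 1.5-fold limit. An adjusted p below 0.05 was thus reached by 2 of the 10 genes, against 0.843% of all genes, and no member passed with the fold limit, against 0.101%. Without single mice of these groups the adjusted p rose, to at most 0.21 for Npas4 and 0.22 for Homer1, with the direction kept.

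**Figure D2:**
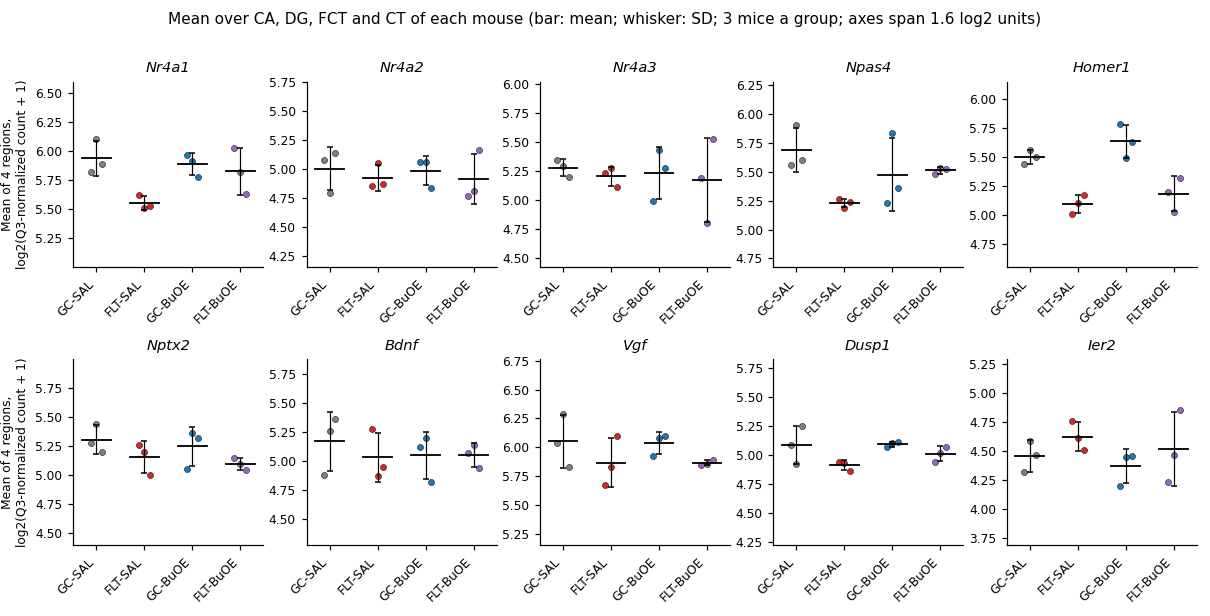
Mean over the 4 regions of log2(Q3-normalized value + 1) in each mouse for the 10 genes, by group, with the group mean. The vertical axes do not start at 0. Npas4 lay at 5.19 to 5.26 in FLT-SAL and at 5.56 to 5.9 in GC-SAL, and Homer1 was lower in both flight groups than in the matching ground groups.

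The remaining 7 genes were not called in any region between FLT-SAL and GC-SAL. Nr4a2 and Nr4a3, which bind the same DNA element as Nr4a1, had overlapping groups in 3 of the 4 regions each. In CT Nr4a2 was at 24.6 ± 4.3 in GC-SAL and 25.7 ± 4.09 in FLT-SAL, and Nr4a3 at 36 ± 1.09 and 32.6 ± 2.67 (mean ± SD, n = 3). The exceptions were Nr4a2 in CA, at 38.48, 41.93 and 37.06 in GC-SAL and lower in FLT-SAL, at 32.96, 32.84 and 32.33 (log2 difference -0.25, adjusted p 0.92 by limma), and Nr4a3 in DG, at 30.36, 30.72 and 32.02 in GC-SAL and higher in FLT-SAL, at 32.61, 36.38 and 40.02 (0.22, adjusted p 0.92). Of all genes in DG, 7.39% had FLT-SAL wholly above GC-SAL. Nptx2, a pentraxin that clusters AMPA receptors at excitatory synapses, was at 41.1 ± 2.98 in GC-SAL and 31.4 ± 6.46 in FLT-SAL in FCT, and Vgf, a secretory granule protein and peptide precursor, at 69 ± 11.1 and 51.7 ± 3.59 in CA. Neither pair of groups overlapped, with adjusted p of 0.87 and 0.72. Bdnf, the neurotrophin that acts through TrkB, had overlapping groups in FCT, at 20.01, 37.67 and 36.49 in GC-SAL and 32.02, 16.44 and 28.78 in FLT-SAL. Dusp1, a phosphatase that turns off MAP kinases, was at 44.4 ± 3.9 and 34.6 ± 5.63 there. Ier2 went the other way in CA, at 18.47, 22.87 and 22.24 in GC-SAL and 27.07, 24.63 and 26.94 in FLT-SAL. Its log2 differences were 0.30 in CA, 0.30 in DG, 0.36 in CT and -0.31 in FCT, on values close to background (1.14 times the negative control in CA of GC-SAL).

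Over the 10 genes the values leaned downward outside DG. In FCT, where the summed myelin and interneuron markers were higher in FLT-SAL, all 10 values were lower, with a median log2 difference of -0.30 against 0.03 over all genes tested, and in CT and CA 8 of 10 were lower, with medians of -0.25 and -0.22 against 0.01 and 0.02. In DG the median was 0.07 against -0.01. An unadjusted p below 0.05 by limma was reached by 9 of 40 pairs of a gene and a region, all of them lower in FLT-SAL. Of all pairs 6.27% did so, and 2.37% counting those lower. The regions share mice and the list was drawn up with earlier results known, so this count is a description.

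**Figure D3:**
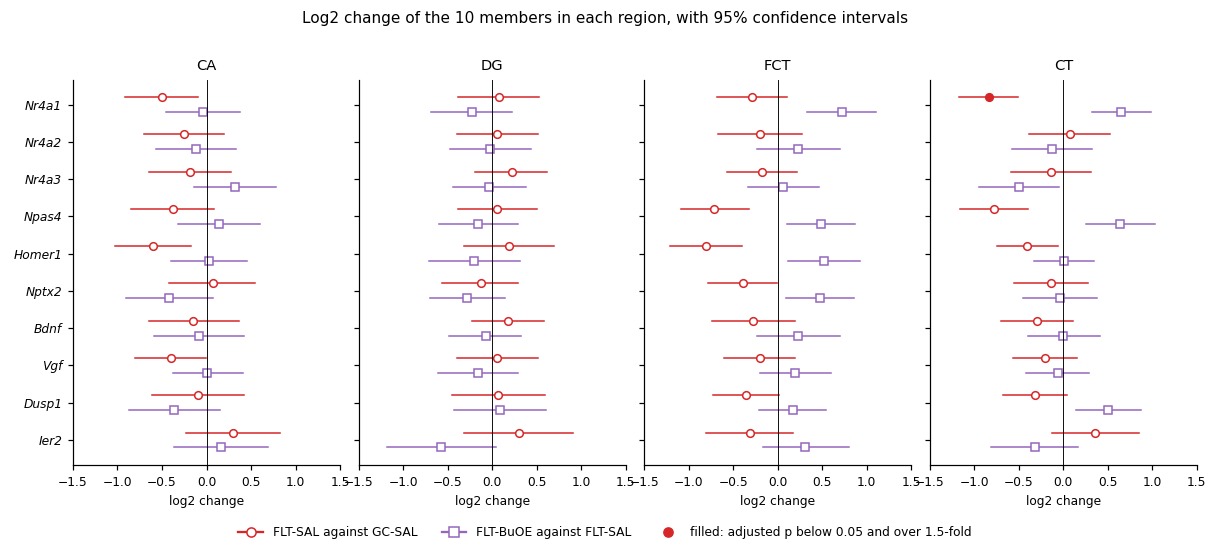
Log2 change of the 10 genes with its 95% confidence interval in each region, with the flight effect under saline (FLT-SAL minus GC-SAL) beside the BuOE effect in flight (FLT-BuOE minus FLT-SAL). Both use the FLT-SAL mice. The filled point, Nr4a1 in CT at -0.84, is the 1 called pair.

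The second comparison asked how flight mice given BuOE differed from flight mice given saline. None of the 10 genes passed the test in any region, against 0.0269% of all pairs, while 8 of 40 pairs had an unadjusted p below 0.05 (6.14% of all pairs) and DESeq2 called 1. Of these 8, 7 were higher in FLT-BuOE and all lay in FCT or CT. Nr4a1 in FCT was at 57.75, 47.17 and 68.35 in FLT-SAL and at 94.34, 112.06 and 80.05 in FLT-BuOE, without overlap (FLT-BuOE lay wholly above FLT-SAL for 3.68% of all genes in FCT and 5.38% in CT), a log2 difference of 0.72 (95% confidence interval 0.33 to 1.11, adjusted p 0.17 by limma and 0.047 by DESeq2). In CT the difference of Nr4a1 was 0.65 (0.32 to 0.98, adjusted p 0.11). Npas4 was higher by 0.64 in CT, where FLT-BuOE read 58.1, 55.59 and 60.8 (adjusted p 0.31), and by 0.49 in FCT (adjusted p 0.53). Homer1 in FCT was at 52.89, 37.35 and 62.54 in FLT-BuOE, which overlaps FLT-SAL (0.52, adjusted p 0.53). The others were Nptx2 in FCT (0.48), Dusp1 in CT (0.50) and, lower, Nr4a3 in CT (-0.50), where 1 FLT-BuOE mouse read 13.34. In both cortical regions the summed myelin genes were wholly lower in FLT-BuOE than in FLT-SAL. In CT the summed cortical layer markers were wholly higher in FLT-BuOE, but of these genes only Lamp5 was called there (99.6 against 43.6). The summed interneuron markers in CT were wholly lower, at 249.18 to 307.96 against 357.3 to 433.07. The part of these markers, of the number of nuclei and of the background in these values was not tested. The FLT-SAL mice enter both comparisons, so the 2 sets of values are not independent of each other.

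Flight was also compared with ground under BuOE. None of the 10 genes passed in any region, against 0.0459% of all pairs, and 8 of 40 pairs had an unadjusted p below 0.05 (7.39% of all pairs). Homer1 was lower in FLT-BuOE in CA (27.6, 31.13 and 43.5 against 54.77, 46.69 and 53 in GC-BuOE, log2 difference -0.60, adjusted p 0.46), in FCT (-0.57, adjusted p 0.53) and in CT (51.64, 44.47 and 42.33 against 60.61, 62.04 and 73.12, -0.49, adjusted p 0.57). Averaged over the 4 regions, Homer1 was at 5.78, 5.49 and 5.63 in GC-BuOE and 5.2, 5.02 and 5.32 in FLT-BuOE on the log2 scale. That difference of -0.45 (95% confidence interval -0.66 to -0.24) had an adjusted p of 0.032 by limma, against 0.336% of all genes below 0.05, and stayed under 1.5-fold. In CT the summed myelin genes and interneuron markers were also lower in FLT-BuOE than in GC-BuOE and the cortical layer markers higher, without overlap. In DG the summed excitatory neuron markers were lower (376.88 to 435.25 against 443.59 to 512.52). Those of granule cells, myelin, and endothelium and meninges were higher there, also without overlap. The part of these markers was not tested. The mice of this comparison are not those of the saline comparison. Nr4a1 was at -0.06 and Npas4 at 0.03 in the same average, with adjusted p of 0.91 and 0.96.

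In CA, Nr4a1, Nr4a2 and Dusp1 were at log2 differences of -0.51, -0.52 and -0.63 between FLT-BuOE and GC-BuOE, with adjusted p of 0.56 to 0.61. The Dusp1 values of FLT-BuOE in CA averaged 1.23 times the negative control, close to background. Nptx2 in DG read 36.69, 42.52 and 36.69 in GC-BuOE and 28.35, 25.01 and 22.24 in FLT-BuOE (-0.60, adjusted p 0.36). Ier2 in FCT was higher (0.67, adjusted p 0.53), but its GC-BuOE values, 14.06, 14.08 and 18.19, were at 1.13 times the negative control.

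On the ground BuOE left the 10 genes without a call, against 0.00158% of all pairs, and 2 of 40 pairs had an unadjusted p below 0.05: Vgf in CA (log2 difference -0.42, adjusted p 0.87) and Ier2 in FCT (-0.67, adjusted p 0.75). The interaction, which asks whether the flight difference was another under BuOE than under saline, had an adjusted p below 0.05 for none of the 10 genes in any region, against 0.019% of all genes in CT, 0.00634% in both CA and FCT, and 0% in DG. Npas4 in CT had an interaction of 0.95 (95% confidence interval 0.40 to 1.49, adjusted p 0.57) and Nr4a1 in CT of 0.88 (0.41 to 1.35, adjusted p 0.44). A difference in the response to flight between saline and BuOE mice was therefore not established for these genes.

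**Figure D4:**
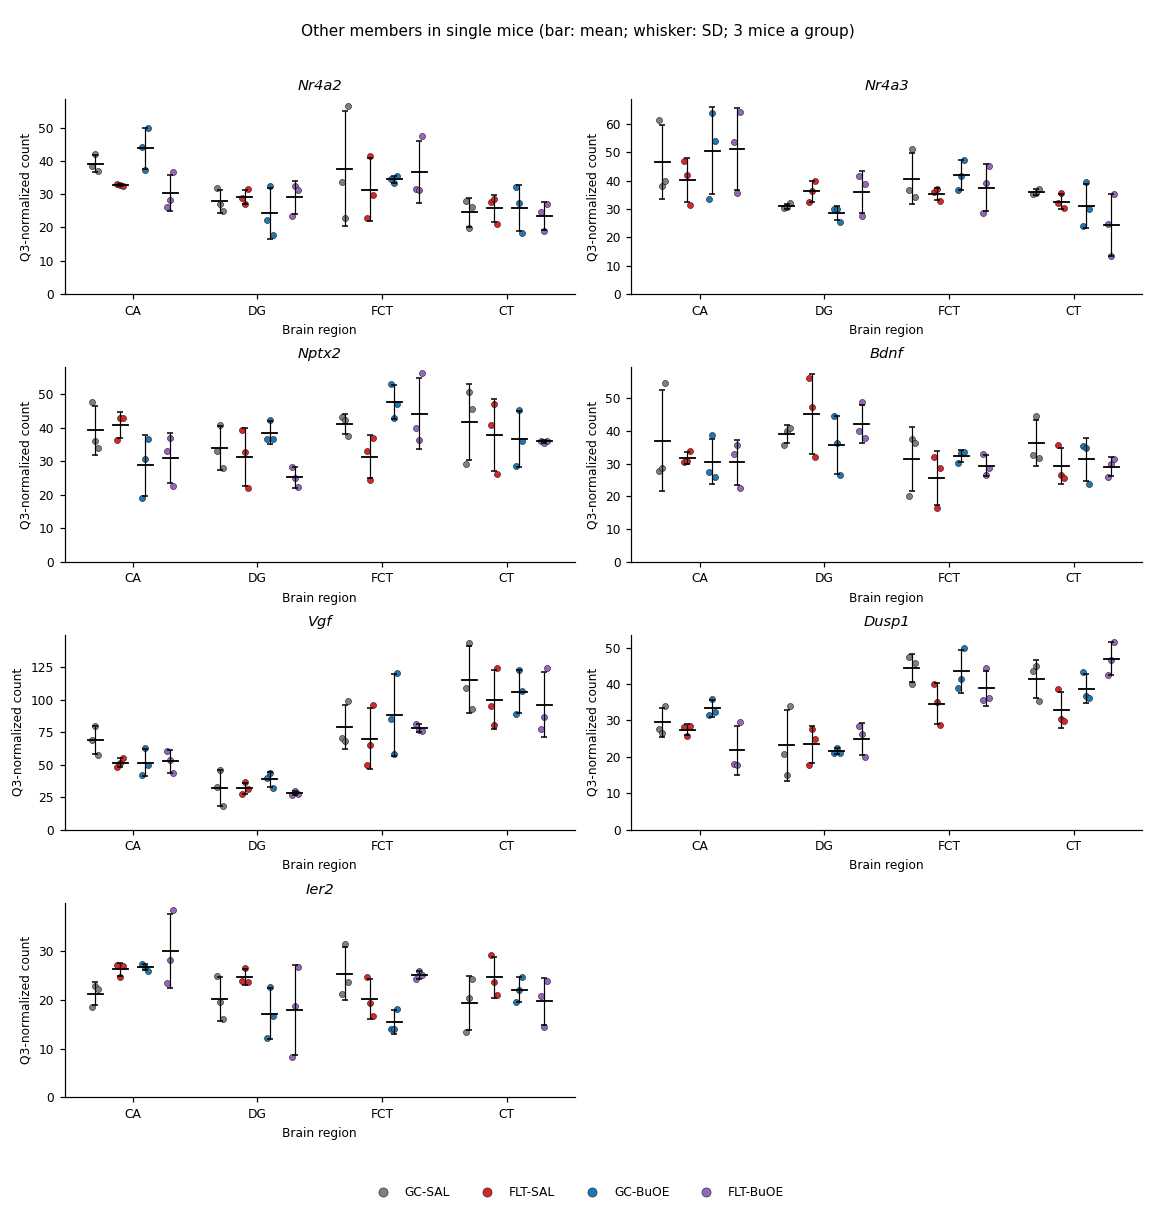
Q3-normalized levels of Nr4a2, Nr4a3, Nptx2, Bdnf, Vgf, Dusp1 and Ier2 in each mouse, by region and group, with the mean and SD of 3 mice. Vgf spanned 18.01 in DG to 143.57 in CT, and Ier2 stayed at 8.34 to 38.28, near the negative control.

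The regions differed more than the groups. Within each mouse the levels of 2 regions were compared, and over the 6 pairs of regions 16 of 60 differences passed the test. In DG against CA 4 of the 10 genes passed, all lower in DG, where 4.09% of all genes were called and 1.69% called lower. In DG against CT 5 passed, all lower (5.78% of all genes called, 3.6% lower), and in DG against FCT 5 passed, all lower (4.54% called, 2.69% lower). None passed between FCT and CT (0.076% of all genes called) or between CA and FCT (3.28%), and in CA against CT 2 did (3.98%). Nr4a1, Homer1 and Vgf were lower in DG than in each of the other 3 regions in 12 of 12 mice.

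Nr4a1 stood at 77.3 ± 23.2 in FCT, 75.9 ± 19.2 in CT, 61.8 ± 17.3 in CA and 27.9 ± 5.49 in DG (mean ± SD over 12 mice). Its level in DG was 2.13-fold lower than in CA (log2 difference -1.09, adjusted p 4.3e-08 by limma) and 2.62-fold lower than in CT (-1.39, adjusted p 5.1e-11), whereas CA, FCT and CT did not differ past the threshold. The relatives of Nr4a1 had another order. Nr4a3 was highest in CA, at 47.2 ± 12.1 against 31 ± 7.34 in CT, where it was lower in 12 of 12 mice (log2 difference of CA minus CT 0.59, adjusted p 0.00030), and Nr4a2 was at 36.5 ± 6.66 in CA and 24.9 ± 4.38 in CT (0.53, adjusted p 0.0019, under the 1.5-fold limit). Nr4a2 and Nr4a3 in DG and CT did not differ past the threshold. Npas4 was at 53.7 ± 16.9 in CT, 49.8 ± 12 in CA, 48.1 ± 11.8 in FCT and 31.1 ± 5.88 in DG, with DG below each of the others (-0.60 to -0.74) and no difference past the threshold among those 3.

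Of the effectors, Homer1 was at 56 ± 20.3 in FCT, 54.7 ± 11.5 in CT, 42.3 ± 10.4 in CA and 21.7 ± 3.63 in DG, and its level in DG was 2.44-fold lower than in CT (-1.29, adjusted p 3.4e-11). Vgf ran from 105 ± 20.8 in CT through 79 ± 19.4 in FCT and 56.2 ± 10.9 in CA to 32.7 ± 7.8 in DG. The step of Vgf from CT to DG was 3.16-fold (-1.66, adjusted p 1.7e-12), and FCT and CT did not differ past the threshold (adjusted p 0.27). Bdnf ran the other way, at 40.6 ± 7.91 in DG against 32.5 ± 8.32 in CA, 31.5 ± 5.76 in CT and 29.8 ± 6.29 in FCT. The differences of DG from the other regions were 0.32 to 0.44 on the log2 scale, with adjusted p of 0.0054 to 0.042, all under 1.5-fold. Dusp1 was at 40.3 ± 5.99 in FCT and 40 ± 6.61 in CT, above DG at 23.3 ± 5.21 (-0.78 and -0.77 for DG, adjusted p 1.2e-05 and 3.4e-05), while CA at 28 ± 5.64 did not differ from DG past the threshold. Nptx2, at 32.3 ± 7.13 in DG to 41.1 ± 8.62 in FCT, and Ier2, at 20 ± 5.79 in DG to 26 ± 4.76 in CA, had no call.

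The negative control was itself lower in DG, and subtracting it from each AOI before the fit moved the counts. The differences that passed rose to 25 of 60, and those of Nr4a1, Homer1 and Vgf between DG and the other regions kept direction and call. Bdnf was then called higher in DG than in CA (1.19), CT (0.80) and FCT (1.04), whereas Npas4 in DG against CA was at -0.50 and was not called. Thinning every AOI to the lowest total left Npas4 in DG called against none of the 3 regions (-0.51 against CT, -0.49 against CA and -0.35 against FCT), and the higher Bdnf of DG then had an adjusted p below 0.05 against CT (0.019) but not against CA (0.24) or FCT (0.13). Leaving out single mice, the call of Npas4 was lost in DG against CA without FLT-BuOE replicate 2, FLT-SAL replicate 3 or GC-BuOE replicate 3, and that of Nr4a3 in CA against CT without FLT-BuOE replicate 2, FLT-SAL replicate 1, GC-BuOE replicate 3 or GC-SAL replicate 1. Npas4 in DG against FCT, at -0.60, lies at the 1.5-fold limit and was called in 7 of 12 such fits.

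**Figure D5:**
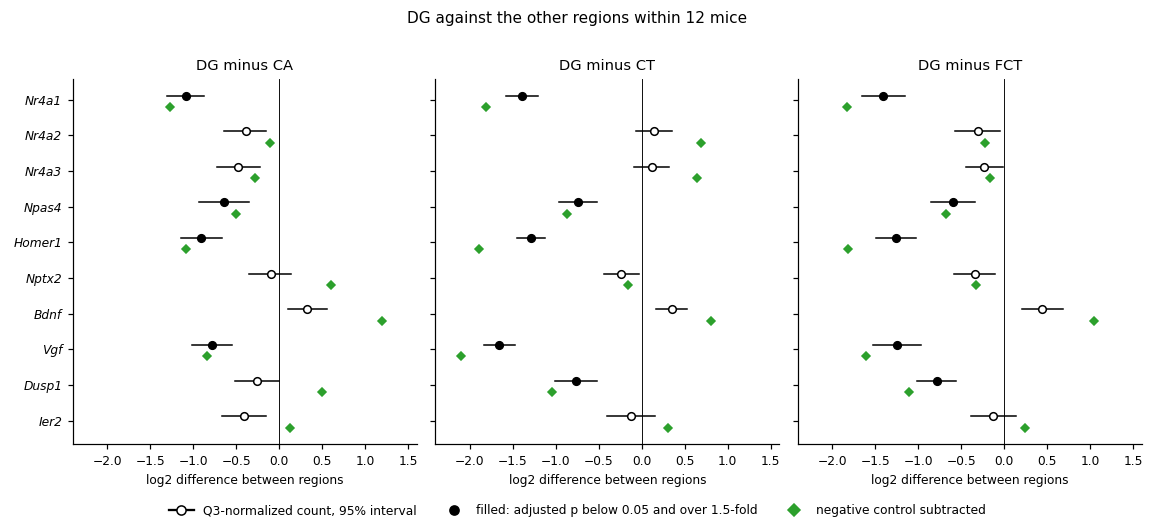
Log2 difference of DG minus CA, CT and FCT within each mouse for the 10 genes, with the 95% confidence interval, and as diamonds the value after subtraction of the negative control. Nr4a1, Homer1 and Vgf lay below 0 in all 3 panels under both, from -0.78 (Vgf, DG minus CA) to -1.66 (Vgf, DG minus CT) before subtraction, and Bdnf lay above 0.

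Other genes of the pathway were listed by role. Of 15 further activity-induced transcription factors, FLT-SAL against GC-SAL called 1 lower in CT, Egr3 (80.5 against 152, log2 difference -0.90, adjusted p 0.0019), and none in CA, DG and FCT. Of 23 further effectors it called 1 lower in CA, 2 in FCT, 1 in CT and none in DG. Arc, a synaptic protein that promotes the removal of AMPA receptors, was called in all of these regions, at -0.71 in CA, at 304 ± 112 in GC-SAL and 72.4 ± 14.8 in FLT-SAL in FCT (3.99-fold lower, adjusted p 6.9e-07) and at -1.56 in CT (adjusted p 3.8e-08), and Scg2, a secretogranin, in FCT at -0.98 (adjusted p 0.0033). In CT Arc read 234.07, 364.66 and 383.48 in GC-SAL and 128.8, 92.55 and 105.7 in FLT-SAL. Fos, near the negative control, was not called (-0.74 in CT, adjusted p 0.35), and Egr1 in CT was at -0.72 (adjusted p 0.052).

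In FLT-BuOE against FLT-SAL, FCT held the calls among the transcription factors Junb (1.22, adjusted p 1.3e-05) and Egr1 (1.13, adjusted p 0.030) and the effector Arc (1.77, adjusted p 1.3e-05), all higher in FLT-BuOE, and CT held that of Egr1 (0.77, adjusted p 0.030). Under BuOE, Arc was lower in flight than on the ground in CA (-0.98, adjusted p 0.00042) and CT (170 ± 31.7 against 338 ± 38.2, adjusted p 0.0028), and Junb was higher in FCT (1.03, adjusted p 0.00079). BuOE on the ground gave no call in either list.

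The signaling genes upstream and the partners of the 10 proteins gave few calls between FLT-SAL and GC-SAL. Of 22 genes of calcium, CREB, SRF and MEF2 signaling, Camk2b, a subunit of the calcium-dependent kinase CaMKII, rose in DG (375 against 251, log2 change 0.59, adjusted p 0.017), and no other gene of the list was called. Of 7 pentraxins and AMPA receptor genes, Gria3 rose in DG (0.74, adjusted p 0.012) and Nptx1, a relative of Nptx2, rose in CT (254 against 125, 1.05, adjusted p 0.00045), while Nptx2 in CT stood at 38 ± 10.7 against 41.8 ± 11.3. None of the 3 RXR genes (dimer partners of some NR4A receptors), the 8 receptors and processing proteins of BDNF and the 9 partners of HOMER1 was called in any region.

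Likeness of pattern was described by Pearson's r over the 48 AOIs, after the mean of each region was taken away. The AOIs share mice and slides, so r is a description. The 3 genes most like Nr4a1 were Egr1 (0.72), Egr3 (0.65) and R3hdm1 (0.64), and Arc came next. Those most like Homer1 were Mical2 (0.75), Arc (0.74) and Ptprn (0.73). For the other 8 genes the highest r was 0.54 to 0.68, with genes such as Bbs9 for Npas4 and Mal2 for Vgf, and Arc ranked at place 72 or lower. Among the 45 pairs of the 10 genes r ran from -0.21 to 0.43 with a median of 0.15. The highest was that of Nr4a1 with Homer1 (0.43), followed by Npas4 with Bdnf (0.42) and Nr4a1 with Npas4 (0.41).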

How the data were processed

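Per the study's methods, the authors hybridized whole-transcriptome probes to 6 µm sections, sequenced the released tags and turned them into deduplicated counts with the GeoMx NGS Pipeline. They deposited these counts per probe for each of the 48 AOIs, and the signal per gene after Q3 normalization, in which the counts of an AOI are divided by their upper quartile, in 1 table for each region. All columns of per-sample values were used. The authors also deposited log2 fold changes with p-values and adjusted p-values for their own comparisons, which were not used. The 10 genes and all other lists were chosen with earlier results of these data known. The genes named are the 10 members, up to 4 called genes of each other list with the largest change, the 3 genes most correlated with each member, and Arc, Fos and Egr1 for reference.

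The main test was limma 3.58.1 (R 4.3.3) on log2(Q3-normalized value + 1), with a mean-variance trend, over the 12 AOIs of a region with the group as the only term and 8 residual degrees of freedom, and Benjamini-Hochberg adjustment over 15782 genes. Fold changes are on this scale, which understates those of low genes. A call needed an adjusted p below 0.05 and a change over 1.5-fold, but no fold limit applied to interactions or to the difference of a group effect between regions. Region pairs were tested on differences within each mouse. The replicate is the mouse. Replicate numbers were taken to name the same mouse across regions, since the 4 AOIs of a number follow each other on the slide in the headers of the deposited tables, and they do not pair mice across groups. Dividing each table value by the step of its AOI gave whole counts, within 0.02, for 99.97% of values, and the counts of all 10 members equal those of exactly 1 probe. These counts entered edgeR 4.0.16 (quasi-likelihood) and DESeq2 1.42.0 as alternatives. Scripts were tested on simulated data. Gene models came from GENCODE vM21 and promoters from RefSeq, both on GRCm38. Further alternatives were another pseudocount, a filter on low genes, subtraction of the negative control, thinning to the lowest total, no trend, only the groups compared, TMM scaling (chosen after seeing the data), a replicate block and leaving out each mouse. Some results of the gene lists are not reported here.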

Additional observations from a re-analysis of the deposited data

How the results depend on the processing

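Directions of called values held: of the alternative values computed for the 10 genes none reversed a called value. Values that were not called could change sign. With the negative control subtracted, DG against CA went from -0.41 to 0.12 for Ier2, from -0.26 to 0.50 for Dusp1 and from -0.10 to 0.60 for Nptx2. In FLT-SAL against GC-SAL, where limma called 1 of 40 pairs, thinning to the lowest total called 0, dropping the mean-variance trend called 0, edgeR called 3 with TMM and 3 with Q3 scaling (Nr4a1 and Npas4 in CT, Homer1 in FCT), DESeq2 called 2, and leaving out a mouse called 0 to 2. In FLT-BuOE against FLT-SAL the count went from 0 to 1 with DESeq2, and in the 4-region mean of FLT-SAL against GC-SAL from 0 to 1 (Homer1) with thinning. Over the 6 pairs of regions it went from 16 to 25 with the negative control subtracted, a setting for which the share over all genes is not given here. After thinning Npas4 in DG was not called against CT (adjusted p 0.080), CA (0.078) or FCT (0.28), and against CA and FCT it was called in 5 of 8 settings each, being lost also with pseudocount 5 in both, with the negative control subtracted in CA and with TMM in FCT. Nr4a3 in CA against CT, close to 1.5-fold, was not called with pseudocount 5 or TMM. Over all pairs of a gene and a region, FLT-SAL against GC-SAL gave 86 calls with limma, 38 after thinning, 6 with no trend, 183 and 196 with edgeR, 108 with DESeq2, and 36 to 126 without single mice. FLT-BuOE against FLT-SAL gave 17, against 11, 3, 57, 62 and 45 under the same settings, and 9 with the negative control subtracted. The cause of these shifts was not tested.

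With the replicate number as a block, 2 pairs were called in FLT-SAL against GC-SAL (Nr4a1 and Npas4 in CT, the latter with an adjusted p of 0.037), and over all genes 144 against 86, and in FLT-BuOE against FLT-SAL 68 against 17. The samples share only a number: within a region the deviations of same-numbered mice of 2 groups correlated at -0.195 to 0.148, with a median of 0.024 and 4 of 72 values above 0.1. It changed no other count of called members. The low counts behind single values limit the precision of each, most of all for Ier2.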

Other observations

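Genes that respond to glucocorticoids, the stress hormones of the adrenal gland, had mostly higher values in FLT-SAL than in GC-SAL. Of 14 such genes, 12 were higher by value in FCT, with a median log2 difference of 0.49 against 0.03 over all genes, and 10 did in CA, 10 in DG and 11 in CT. Sgk1, a kinase gene, rose in FCT (93.3 against 48.1, log2 change 0.93, adjusted p 0.019 by limma) and CT (81.6 against 35.3, 1.18, adjusted p 0.00034). Mt1, a metallothionein that also responds to metals, rose in CA (0.67), DG (0.81) and FCT (0.87). The other members of the list were not called in any region, and no gene of the list was called between FLT-BuOE and FLT-SAL.

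Among the cell type markers, Wfs1 rose in CA (log2 change 0.82) and C1ql2 in DG (0.60) in FLT-SAL against GC-SAL, both genes by which the region is recognised, while no marker list of GABAergic interneurons, astrocytes, microglia or endothelium held a call in that comparison. Neurod2 fell in DG in FLT-BuOE against GC-BuOE (-0.68), and in CT Lamp5 rose in FLT-BuOE against FLT-SAL (1.19), where the myelin genes Mobp (-1.21), Cldn11 (-1.04) and Mbp (-0.81) fell.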
